A study of Mus musculus with 8 samples.

Results

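The genes described here encode the machinery that copies DNA in S phase. They are a list of 44 mouse genes chosen by name, of the 16790 named genes in the deposited tables. Like the lists set beside it below, it was chosen with earlier results of these data known. By role, 5 load the helicase onto replication origins (Orc1, Orc2, Orc6, Cdc6, Cdt1), 12 belong to the helicase or fire it (Mcm2 to Mcm7, Mcm10, Cdc45, Gins1 to Gins4), 9 are polymerase or primase subunits, 6 are the sliding clamp and its loader, 3 bind single-stranded DNA, 2 remove flaps and seal nicks, 4 supply nucleotides and 3 restore chromatin behind the fork. The measurements were RNA-seq profiles of whole liver from 8 mice. The 4 control mice (numbers 164, 165, 166 and 167) were wild type (WT). The 4 others (143, 144, 145 and 179) were E4bp4-LKO mice, in which E4bp4 was deleted in liver. E4bp4 is the gene listed as Nfil3, and its protein, E4BP4, represses transcription from D-box elements. Both groups were placed at 2 months of age on a diet that induces non-alcoholic steatohepatitis (NASH), a fatty liver disease with inflammation, and kept on it for 20 weeks. The series' title names hepatocyte E4BP4 and liver fibrosis. The sources used here do not give the driver of the deletion, nor the sex, strain or litters of the mice. A difference in background cannot be told apart from the deletion.

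Replication starts when the origin recognition complex (ORC), CDC6 and CDT1 place the ring of MCM2 to MCM7 on DNA, a step called licensing. CDC45 and the GINS complex then join the ring to form the active helicase, and MCM10 helps to start it. Polymerases alpha, delta and epsilon copy the unwound strands while PCNA, the clamp loaded by replication factor C (RFC), holds them on the template. Most hepatocytes of an adult liver are out of the cell cycle, and transcripts of many of these genes are known to accumulate under E2F transcription factors when cells enter S phase.

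Stretches of promoter are printed for 6 members: 4 that were lower in E4bp4-LKO livers and hold an E2F-type motif (Mcm5, Mcm6, Mcm7 and Uhrf1), and the 2 members that were higher (Mcm10 and Tk1). Each is the 250 bases before a RefSeq transcript start, taken from RefSeq on build GRCm38.p6 and written 5′ to 3′ on the gene's strand, with matches to the E2F motifs in capitals.
Mcm5, chr8:75109259-75109508, plus strand: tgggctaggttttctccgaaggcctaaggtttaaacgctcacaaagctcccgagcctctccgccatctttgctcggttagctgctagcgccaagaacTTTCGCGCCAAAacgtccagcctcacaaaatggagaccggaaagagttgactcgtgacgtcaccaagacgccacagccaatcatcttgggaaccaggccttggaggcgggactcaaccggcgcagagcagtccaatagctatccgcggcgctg
Mcm6, chr1:128359706-128359955, minus strand: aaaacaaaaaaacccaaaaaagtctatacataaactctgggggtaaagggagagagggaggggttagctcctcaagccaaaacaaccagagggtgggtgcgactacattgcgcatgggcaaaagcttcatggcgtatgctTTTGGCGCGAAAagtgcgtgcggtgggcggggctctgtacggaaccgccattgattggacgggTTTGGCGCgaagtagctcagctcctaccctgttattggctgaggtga
Mcm7, chr5:138171884-138172133, minus strand: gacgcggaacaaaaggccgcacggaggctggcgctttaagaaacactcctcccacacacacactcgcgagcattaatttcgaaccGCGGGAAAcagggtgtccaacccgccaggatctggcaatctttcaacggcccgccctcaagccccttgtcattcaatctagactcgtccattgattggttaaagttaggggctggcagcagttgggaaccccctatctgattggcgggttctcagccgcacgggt
Uhrf1, chr17:56304063-56304312, plus strand: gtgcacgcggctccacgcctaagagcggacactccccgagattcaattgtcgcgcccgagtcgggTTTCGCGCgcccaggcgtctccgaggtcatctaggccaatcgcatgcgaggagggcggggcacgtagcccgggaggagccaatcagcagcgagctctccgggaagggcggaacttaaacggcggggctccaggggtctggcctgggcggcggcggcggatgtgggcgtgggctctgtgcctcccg
Mcm10, chr2:5012792-5013041, minus strand: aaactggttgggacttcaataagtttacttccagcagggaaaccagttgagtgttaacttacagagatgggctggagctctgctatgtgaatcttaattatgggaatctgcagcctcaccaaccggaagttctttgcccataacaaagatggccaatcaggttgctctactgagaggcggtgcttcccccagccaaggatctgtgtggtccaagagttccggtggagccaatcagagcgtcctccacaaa
Tk1, chr11:117826015-117826264, minus strand: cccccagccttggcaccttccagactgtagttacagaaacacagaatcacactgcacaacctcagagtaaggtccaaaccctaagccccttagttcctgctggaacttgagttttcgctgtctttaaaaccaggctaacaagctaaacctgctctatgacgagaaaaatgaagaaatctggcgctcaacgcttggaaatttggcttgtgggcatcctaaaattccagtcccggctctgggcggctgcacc
The E2F motifs searched were TTTCCCGC, TTTCGCGC, TTTGCCGC and TTTGGCGC on both strands, and where 2 matches overlapped the capitals run on. In Mcm5 a match 153 bases before the start overlaps one on the other strand at 149 bases. Mcm6 holds 3 matches, at 110, 106 and 47 bases. The match lies at 165 bases in the second of 2 Mcm7 entries and at 185 bases in the second of 2 Uhrf1 entries.

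Promoter entries were found for 37 of the 44 members, 44 entries in all because some genes have several starts. An E2F motif stood in 9 of the 44 entries (20.5%), against 611 of 32851 entries of all genes (1.86%) and 407 of 13291 entries of genes tested here (3.06%). The other holders were Cdc6 at 138 bases, Pola1 at 138, Gins3 at 41, Orc1 at 27 and Rfc3 at 10. Of the entries of members that were lower, 4 of 18 held the motif (22.2%), and of those of members that did not pass the test 4 of 23 did (17.4%). The motif thus lay in both kinds of member, and the 2 entries of members that were higher held none. The D-box motifs TTATGTAA, TTACATAA, TTACGTAA and TTATATAA were searched on both strands; the first pair are reverse complements of each other and the other two read the same on both strands. They were in 0 of the 44 member entries, in 1.43% of all entries and in 0.91% of entries of genes tested here. With shares this low, finding 0 in 44 entries says little. These matches describe letters in the window and not binding.

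Nfil3 was measured first, as a check of the labels. Its level was 11.4, 8.79, 12.1 and 16.5 CPM in the WT livers (CPM is the count scaled to library size with TMM, here in the order of mouse numbers given above) and 3.33, 6.23, 6.14 and 3.35 CPM in the E4bp4-LKO livers. The groups did not overlap, the log2 fold change was -1.35 (SE 0.25, edgeR adjusted p = 0.0122), and an exact two-sided permutation test over the 8 livers gave p = 0.0286, the smallest possible with 4 against 4. Libraries held 23805540 to 32290265 counts. The TMM factor corrects for the makeup of a library. It was 1.16, 1.09, 1.00 and 0.98 in the WT livers and 0.96, 0.94, 0.95 and 0.94 in the E4bp4-LKO livers. Every WT factor was thus above every E4bp4-LKO factor, so results are also given without these factors where that matters. Summed hepatocyte markers (Alb, Apoa1, Ttr, Cps1 and Tat, 0 of 5 passing in edgeR, with 2 at an unadjusted p under 0.05 and 2 called by DESeq2, Tat lower and Cps1 higher) ran from 53256 to 68962 CPM across WT livers and from 66532 to 82593 CPM across E4bp4-LKO livers.

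Replication genes were mostly lower in the E4bp4-LKO livers. Of 43 members tested, 15 were lower at an adjusted p under 0.05, 2 were higher and 26 did not pass, while over all 13240 genes tested 10.9% passed (6.49% lower and 4.38% higher). The 15 that fell were Cdt1, Mcm2, Mcm3, Mcm4, Mcm5, Mcm6, Mcm7, Gins2, Pold1, Pcna, Fen1, Lig1, Rrm1, Uhrf1 and Chaf1b. The 2 that rose were Mcm10 and Tk1. As the list was chosen with earlier results known, its share of calls was not tested against that of all genes. The median log2 fold change of the tested members was -0.44, with 37 negative and 6 positive, beside 0.0094 over all genes. All E4bp4-LKO livers lay below all WT livers for 21 members, an ordering that 9.68% of all genes showed, and above them for 2, against 8.8% of all genes. Since this is whole tissue, fewer cells of a type and less RNA per cell cannot be told apart. Nothing in the labels says how the livers were batched, and p-values measure the spread between these mice.

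**Figure D1:**
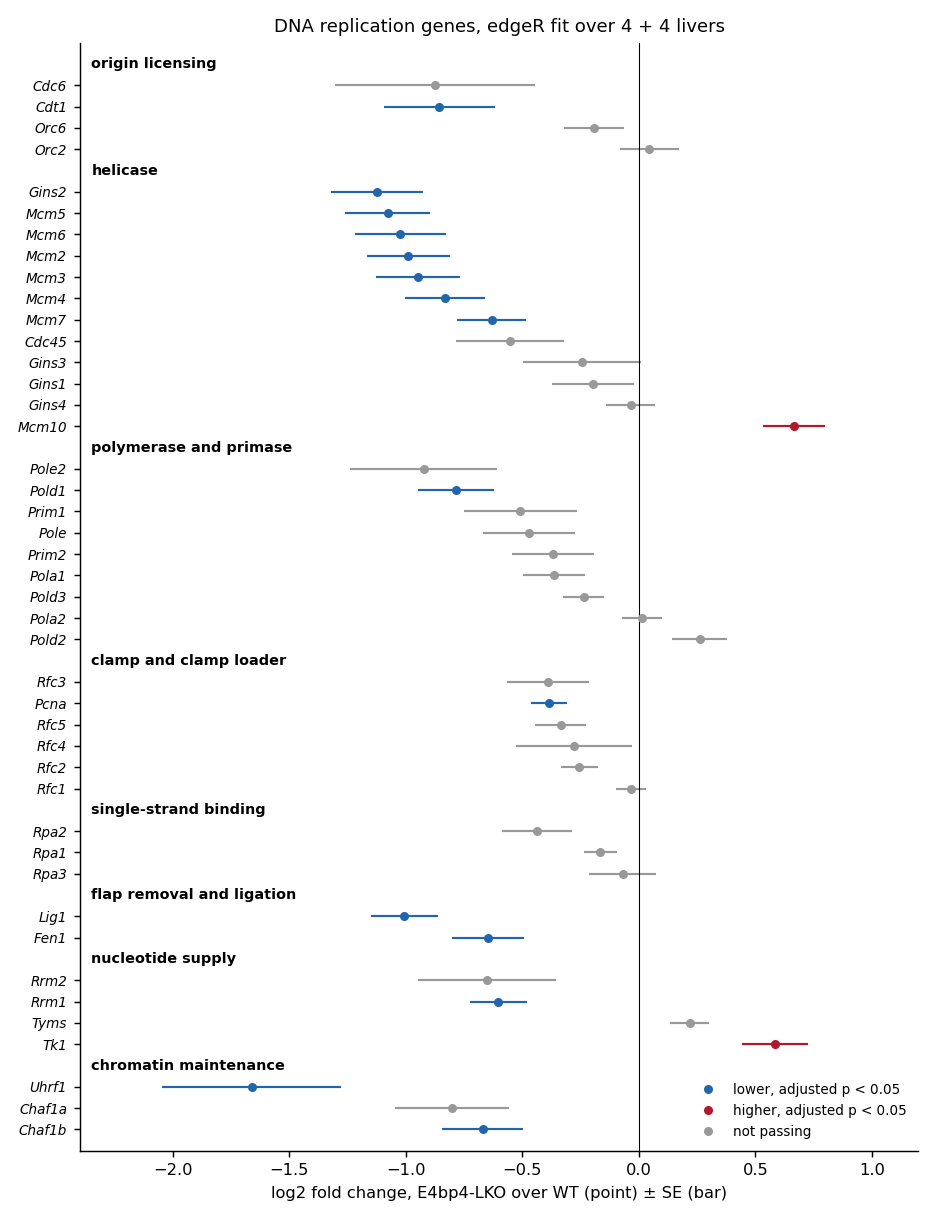
Log2 fold change of each tested replication gene, E4bp4-LKO over WT (horizontal axis), with bars of ± 1 SE from the edgeR fit over 4 and 4 livers, in blocks by role. The 15 lower genes (blue) run from -1.66 for Uhrf1 to -0.39 for Pcna, and the 2 higher genes (red) are Mcm10 at 0.67 and Tk1 at 0.58.

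The count of lower members moved with the livers used. It was 13 without WT 164, 13 without WT 165, 14 without WT 166 and 16 without WT 167. It was 19 without E4bp4-LKO 143, with Cdc6, Pole, Rpa2 and Chaf1a added. The count was 7 without E4bp4-LKO 144, and 10 without either 145 or 179. Lower calls over all genes moved too, from 859 to 271 without 144, 422 without 145, 423 without 179, 528 without WT 164 and 370 without WT 165. The genes that passed in each of these 8 fits were Mcm2, Mcm3, Mcm5, Gins2, Pold1, Pcna, Lig1 and Mcm10. Without WT 164 and WT 165 together, 5 were lower (Mcm5, Mcm6, Gins2, Pold1 and Lig1) and 0 higher, with edgeR adjusted p of 0.0313 for Mcm6 and 0.0053 for Lig1, and the median was -0.33. With library totals in place of TMM 22 were lower, the 15 and Pola1, Pold3, Rfc2, Rfc5, Rpa1, Rpa2 and Chaf1a. Lower calls over all genes then went from 859 to 1662 of 13240, and the median of all genes was -0.15.

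The helicase held the most members that fell: 7 of its 12 tested genes were lower and 1 was higher, with a median log2 fold change of -0.73. The 6 genes of the MCM2 to MCM7 ring all fell, with a median of -0.97. All 6 also passed as lower with DESeq2 size factors (median -0.97), with library totals (-1.14) and in limma on log2(FPKM + 1) and log2(FPKM + 0.1) (-0.92 and -1.11). Their summed level was 166, 105, 118 and 110 CPM in the WT livers and 82.9, 61.6, 53.8 and 67.6 CPM in the E4bp4-LKO livers. The 2 groups were separate, and WT 164 and E4bp4-LKO 143 were the highest of their groups for each of the 6 genes.

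Mcm5 moved furthest in the ring. It was at 23.1, 12.7, 16.5 and 15.9 CPM in WT livers and at 10.1, 7.38, 6.91 and 7.90 CPM in E4bp4-LKO livers, a log2 fold change of -1.08 (SE 0.18, edgeR adjusted p = 0.0073). Every E4bp4-LKO liver lay below every WT liver. The expected counts of Mcm5 were fractional in 8 of 8 libraries, as were those of Mcm10, Gins2, Pola2, Rfc4, Tyms and Tk1, which means that reads were shared out by estimate. Mcm6 was at 36.0, 21.3, 23.5 and 21.3 CPM in WT and at 15.3, 11.3, 9.82 and 13.9 CPM in E4bp4-LKO livers (-1.02, SE 0.20, adjusted p = 0.0133). WT 164 stood well above the other WT livers for this gene, and without it Mcm6 still passed. Mcm2 was at 27.3, 18.5, 21.2 and 19.5 CPM against 14.5, 9.88, 8.02 and 11.2 CPM (-0.99, SE 0.18, adjusted p = 0.0098). Mcm3 was at 27.9, 19.0, 19.1 and 17.0 CPM against 14.3, 9.46, 9.56 and 9.78 CPM (-0.95, SE 0.18, adjusted p = 0.0117). In both genes E4bp4-LKO 143 was the nearest to the WT range without entering it. Mcm4 was at 22.0, 14.8, 17.1 and 15.2 CPM against 12.4, 8.40, 7.54 and 10.5 CPM (-0.83, SE 0.17, adjusted p = 0.0156). Mcm7 had the smallest difference of the ring, at 29.3, 18.3, 20.4 and 21.4 CPM against 16.4, 15.2, 12.0 and 14.2 CPM (-0.63, SE 0.15, adjusted p = 0.0248). The groups of both genes were also separate. Mcm7 shares runs of 50 bases with the gene model Gm5487, so reads could have been split between them. Without WT 164 the 6 genes passed with edgeR adjusted p from 0.0061 to 0.0306. Without E4bp4-LKO 144, Mcm4 and Mcm6 missed the threshold at adjusted p of 0.0571 and 0.0506, as did Mcm7, which also missed it without 145 or 179 (up to 0.0651).

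**Figure D2:**
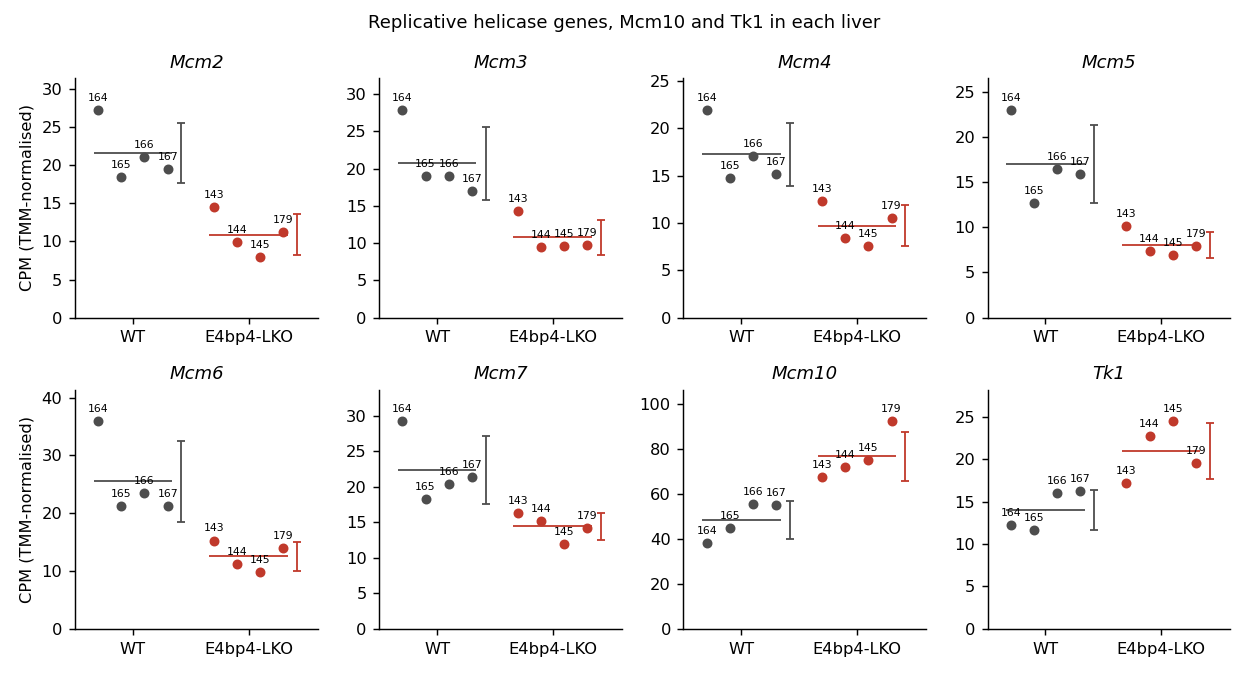
TMM-normalised CPM (vertical axes, from 0) of Mcm2 to Mcm7, Mcm10 and Tk1, 1 point per liver with its mouse number, a line at the group mean and a bar of ± 1 SD (n = 4 per group). In each panel of Mcm2 to Mcm7 the E4bp4-LKO points lie below the WT points, and in the Mcm10 and Tk1 panels they lie above them.

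Mcm10, which binds the assembled helicase and helps it to fire, went the other way from the ring. Its level was 38.1, 44.6, 55.5 and 55.0 CPM in WT livers and 67.5, 72.0, 74.8 and 92.3 CPM in E4bp4-LKO livers. All E4bp4-LKO livers were above all WT livers, and WT 164, the highest WT liver for the ring, was the lowest for Mcm10. The log2 fold change was 0.67 (SE 0.13, edgeR adjusted p = 0.0142). Its counts are among the fractional ones, so its level is uncertain. The same holds for Tk1, Tyms and Pola2, which also had positive fold changes, and for Mcm5, Gins2 and Rfc4, which had negative ones. No exon of another gene overlapped it in GENCODE M21. Per length, Mcm10 was at 12.4, 13.6, 15.7 and 15.2 FPKM in the WT livers. In WT 164 it lay below Mcm6 and Mcm7, at 14.3 and 14.1 FPKM, and in the other 3 above all 6 ring genes.

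Among the factors that turn the ring into a helicase, Gins2 fell. It encodes a GINS subunit and was at 3.04, 2.75, 3.05 and 2.80 CPM in WT livers against 1.81, 1.12, 1.10 and 1.29 CPM in E4bp4-LKO livers. The WT values were close together, with no high value in WT 164, and all E4bp4-LKO values were lower (-1.12, SE 0.20, edgeR adjusted p = 0.0083). Of its exonic bases 67.3% overlap Gse1 on the opposite strand, its counts were fractional in 8 of 8 libraries, and the strand of the libraries is not given, so reads of these genes may be mixed. The other 3 GINS genes did not pass, with log2 fold changes of -0.20 for Gins1, -0.24 for Gins3 and -0.035 for Gins4. Cdc45 was at 3.69 ± 1.22 CPM in WT and 2.53 ± 0.395 CPM in E4bp4-LKO livers (SD, n = 4), with overlapping groups and a log2 fold change of -0.55 that did not pass (SE 0.23, adjusted p = 0.147) and was -0.30 without WT 164.

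In origin licensing, 1 of 4 tested genes fell. Their median log2 fold change was -0.53, and -0.33 without WT 164. Cdt1, which brings the ring to the origin, was at 15.1, 8.85, 7.93 and 7.63 CPM in WT livers and 7.15, 5.07, 5.41 and 4.20 CPM in E4bp4-LKO livers. WT 164 lay far above the other WT livers, while E4bp4-LKO 143 came close to WT 167. The log2 fold change was -0.86 (SE 0.24, edgeR adjusted p = 0.0451), and the call needed each of WT 164, WT 165 and E4bp4-LKO 144, 145 and 179, since without one of them the adjusted p reached as much as 0.121. It was also lost with no low-count filter (0.0508) and with voom weights (0.05002). Cdc6, the ATPase that works with ORC, was at 3.64, 1.56, 2.42 and 1.36 CPM against 2.41, 0.956, 0.772 and 0.759 CPM. Its groups overlapped through E4bp4-LKO 143, and its log2 fold change of -0.87 did not pass (SE 0.43, adjusted p = 0.210). It was -0.53 without WT 164, and -1.43 and passing without E4bp4-LKO 143 (0.0372). Of the ORC subunit genes, Orc2 had a log2 fold change of 0.045 (SE 0.13) and Orc6 one of -0.19 (SE 0.13), with overlapping groups, and neither passed. With library totals the Orc2 value was -0.12. Orc1 did not pass the filter on low counts. It was at 1.10, 0.611, 0.386 and 0.210 CPM in WT and 0.222, 0.297, 0.147 and 0.134 CPM in E4bp4-LKO livers, where 3 counts correspond to 0.0929 to 0.126 CPM. WT 164 was the highest liver, and WT 167 lay within the E4bp4-LKO range. Without WT 167, its lowest WT liver, Orc1 was kept by the filter and passed as lower. It was also included in DESeq2, with no low-count filter and without E4bp4-LKO 143, 144 or 145, and was not called there.

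Of 9 polymerase and primase genes, 1 fell, with a median log2 fold change of -0.37. Pold1, the catalytic subunit of polymerase delta, was at 9.83, 6.11, 7.12 and 8.26 CPM in WT livers and 5.22, 4.78, 4.23 and 3.93 CPM in E4bp4-LKO livers. The groups were separate, with a log2 fold change of -0.78 (SE 0.16, edgeR adjusted p = 0.0154). The accessory subunits of the same enzyme did not pass: Pold2 had a log2 fold change of 0.26 (SE 0.12) and Pold3 one of -0.24 (SE 0.088). With library totals these were 0.10 and -0.40, and Pold3 passed (0.0440). Pole2, a subunit of polymerase epsilon, was at 2.40, 1.37, 1.51 and 1.22 CPM against 1.22, 0.956, 0.735 and 0.491 CPM. E4bp4-LKO 143 lay just under the lowest WT liver, and the log2 fold change of -0.92 did not pass (SE 0.31, adjusted p = 0.0832). Pole, its catalytic subunit, had a log2 fold change of -0.47 (SE 0.20, and -0.29 without WT 164) with overlapping groups. In polymerase alpha-primase, which lays the primers, Pola1 was at -0.36 (SE 0.13), Prim1 at -0.51 (SE 0.24), Prim2 at -0.37 (SE 0.18) and Pola2 at 0.014 (SE 0.087) on the log2 fold scale. None of these 4 passed.

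Of the clamp and its loader, 1 of 6 genes fell, and the median log2 fold change was -0.31. Pcna, the clamp, was at 43.7, 38.1, 40.9 and 37.7 CPM in WT livers and 33.7, 31.0, 27.8 and 30.3 CPM in E4bp4-LKO livers. Its difference was small but the livers within a group were close, so that the groups were separate (-0.39, SE 0.079, edgeR adjusted p = 0.0146). Pcna shares runs of 50 bases with its pseudogene Pcna-ps2, which could take some of its reads. Per length it was the most abundant member in both groups, at 34.1 ± 4.60 FPKM in WT and 23.3 ± 2.01 FPKM in E4bp4-LKO livers (SD, n = 4). Rfc2 was at 25.6, 22.2, 24.3 and 26.9 CPM against 19.6, 21.6, 20.2 and 21.7 CPM, with WT 165 only just above E4bp4-LKO 179 (-0.26, SE 0.079, adjusted p = 0.0626). The other loader genes had log2 fold changes from -0.39 for Rfc3 to -0.033 for Rfc1, with -0.34 for Rfc5 and -0.28 for Rfc4, and none passed. Under TMM the loader thus had no gene past the threshold. With library totals Rfc2 and Rfc5 passed as lower, at log2 fold changes of -0.41 and -0.50 (edgeR adjusted p = 0.0157 and 0.0294). The median of the 6 genes was then -0.47, beside -0.15 over all genes. Rfc2 and Rfc5 also passed in limma on FPKM.

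The 3 genes of replication protein A, which coats single-stranded DNA, did not pass, with a median log2 fold change of -0.17. Of them 2 were under an unadjusted p of 0.05 in edgeR, and 0 passed in DESeq2. With library totals Rpa1 and Rpa2 both passed as lower (edgeR adjusted p = 0.0362 and 0.0499). The median was then -0.33, beside -0.15 over all genes. In limma on FPKM Rpa1 passed with either pseudocount and Rpa2 with 0.1. Rpa1 was at 46.3, 40.1, 41.6 and 44.5 CPM in WT livers and 38.6, 39.6, 36.1 and 39.6 CPM in E4bp4-LKO livers. The groups touched without overlapping (-0.17, SE 0.069, adjusted p = 0.147). Rpa2 was at 11.5, 9.31, 8.84 and 8.43 CPM against 8.63, 5.47, 6.91 and 7.19 CPM, with E4bp4-LKO 143 inside the WT range (-0.44, SE 0.15, adjusted p = 0.0865). Without that liver Rpa2 passed (0.0443). Rpa3 had a log2 fold change of -0.070 (SE 0.14).

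Both genes that finish lagging-strand fragments fell. Lig1, the ligase that seals them, was at 16.2, 10.1, 11.8 and 13.0 CPM in WT livers and 7.26, 6.06, 5.96 and 6.16 CPM in E4bp4-LKO livers. The 3 lower E4bp4-LKO livers were almost alike, and E4bp4-LKO 143 was again the nearest to WT. The log2 fold change was -1.01 (SE 0.14), and its edgeR adjusted p of 0.0034 was the lowest of the members. Fen1, the flap nuclease, was at 10.7, 7.60, 8.17 and 7.17 CPM against 5.96, 5.80, 4.34 and 5.36 CPM (-0.65, SE 0.15, adjusted p = 0.0260). Its groups were separate, and leaving out E4bp4-LKO 144, 145 or 179 ended the call, with adjusted p as high as 0.0653. Of its exonic bases 78.8% overlap the gene model Gm10143 on the opposite strand.

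The 4 nucleotide supply genes divided, with 1 lower, 1 higher and a median log2 fold change of -0.19. That median was -0.35 with library totals, -0.065 without WT 164 and 0.032 without WT 164 and 165. Rrm1, the large subunit of ribonucleotide reductase, was at 26.3, 21.2, 19.9 and 22.7 CPM in WT livers and 16.3, 13.6, 12.4 and 17.2 CPM in E4bp4-LKO livers. The groups were separate (-0.60, SE 0.12, edgeR adjusted p = 0.0133), and the call was lost by a little without E4bp4-LKO 144 (0.0504). Rrm2, the small subunit, was at 13.4 ± 5.99 CPM in WT and 8.54 ± 2.10 CPM in E4bp4-LKO livers (SD, n = 4). The groups overlapped and its log2 fold change of -0.65 did not pass (SE 0.29, adjusted p = 0.183). It was -0.30 without WT 164 and -0.12 without WT 164 and 165. Tk1, the thymidine kinase of the salvage pathway, rose from 12.3, 11.6, 16.0 and 16.2 CPM to 17.2, 22.7, 24.5 and 19.5 CPM. E4bp4-LKO 143 lay just above the highest WT liver (0.58, SE 0.14, adjusted p = 0.0273). Leaving out any of the same 5 livers as for Cdt1 ended the call, with adjusted p as high as 0.0830. Tyms, which makes thymidylate, had a log2 fold change of 0.22 that did not pass (SE 0.082, adjusted p = 0.110). The counts of both Tk1 and Tyms were fractional in 8 of 8 libraries, and both share sequence with other gene models, so their levels are uncertain.

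In chromatin maintenance, 2 of 3 genes fell, with a median log2 fold change of -0.80. Uhrf1, which recruits the maintenance DNA methyltransferase to newly copied DNA, had the largest fall of all members. It was at 16.6, 6.90, 7.79 and 5.95 CPM in WT livers and 4.81, 2.64, 2.21 and 2.10 CPM in E4bp4-LKO livers. The groups were separate, with WT 164 far above the rest (-1.66, SE 0.38, edgeR adjusted p = 0.0282). Without WT 164 the log2 fold change was -1.22 and passed (adjusted p = 0.0224). Without WT 164 and 165 together it was -1.21 and did not pass (0.0804). Each of E4bp4-LKO 144, 145 and 179 was needed for the call (adjusted p as high as 0.0821). Uhrf1 shares runs of 50 bases with the gene model Gm5648, so reads could have been split between them. Chaf1b, a subunit of the histone chaperone CAF-1, was at 4.68, 3.39, 3.79 and 3.64 CPM against 3.04, 2.08, 2.32 and 2.32 CPM. Its groups were separate and its log2 fold change was -0.67 (SE 0.17, adjusted p = 0.0354). It passed without WT 167 or E4bp4-LKO 143 and missed the threshold without any other single liver, at adjusted p up to 0.104. Chaf1a, the large CAF-1 subunit, was at 8.22 ± 2.07 CPM in WT and 4.72 ± 1.69 CPM in E4bp4-LKO livers (SD, n = 4). Its log2 fold change of -0.80 did not pass in edgeR (SE 0.25, adjusted p = 0.0614) and did in DESeq2 (0.0155). Of its exonic bases 52.5% overlap Ubxn6 on the opposite strand.

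**Figure D3:**
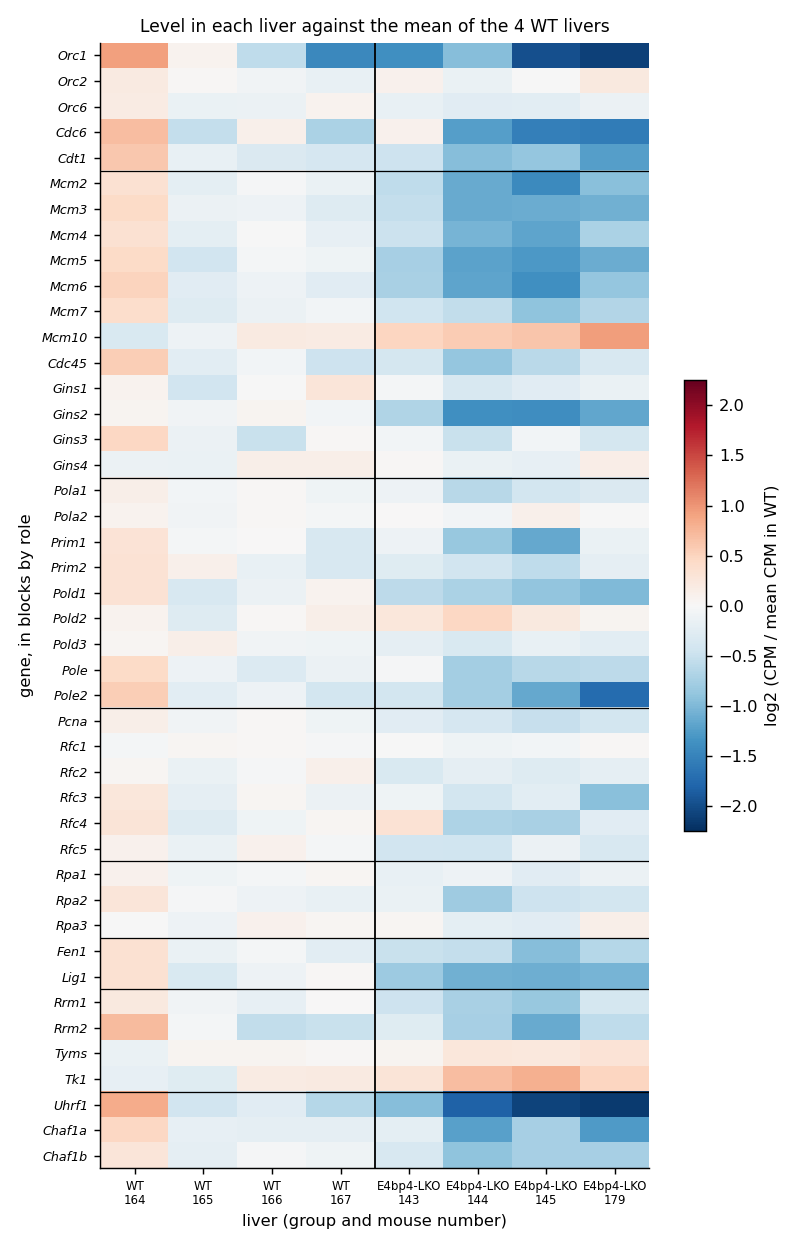
Level of all 44 replication genes (vertical axis, in blocks by role) in each of the 8 livers (horizontal axis), as log2 of the CPM over the mean CPM of the 4 WT livers. Uhrf1 is dark blue in E4bp4-LKO 144, 145 and 179, Mcm2 to Mcm6 and Lig1 are a lighter blue there, and all of these are paler in 143. Orc1, not tested for its low counts, is about as dark in 145 and 179, at 0.147 and 0.134 CPM against a WT mean of 0.576 CPM. WT 164 is the reddest WT column, and Mcm10 and Tk1 run the other way.

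Members differed between livers of the same group as well as between groups. WT 164 had the highest level of the 8 livers for 30 of the 44 members and the highest WT level for 33. Among the E4bp4-LKO livers, 143 was the highest for 26 members, and 145 was the lowest of all 8 for 17 and 144 for 10. The median level of the tested members, relative to the WT mean of each gene, was 1.21, 0.90, 0.97 and 0.94 in the WT livers and 0.86, 0.65, 0.66 and 0.76 in the E4bp4-LKO livers. WT 165, 166 and 167 thus lay close together, above E4bp4-LKO 143 by less than WT 164 lay above them. For the 10 mitotic markers the same medians were 1.56, 0.93, 0.76 and 0.75 in WT and 0.63, 0.36, 0.55 and 0.49 in E4bp4-LKO livers. WT 164 and E4bp4-LKO 143 headed their groups there too, while WT 165, the lowest WT liver for the replication genes, came second. All genes together gave medians near 1 in every liver, as TMM scaling sets them to be.

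**Figure D4:**
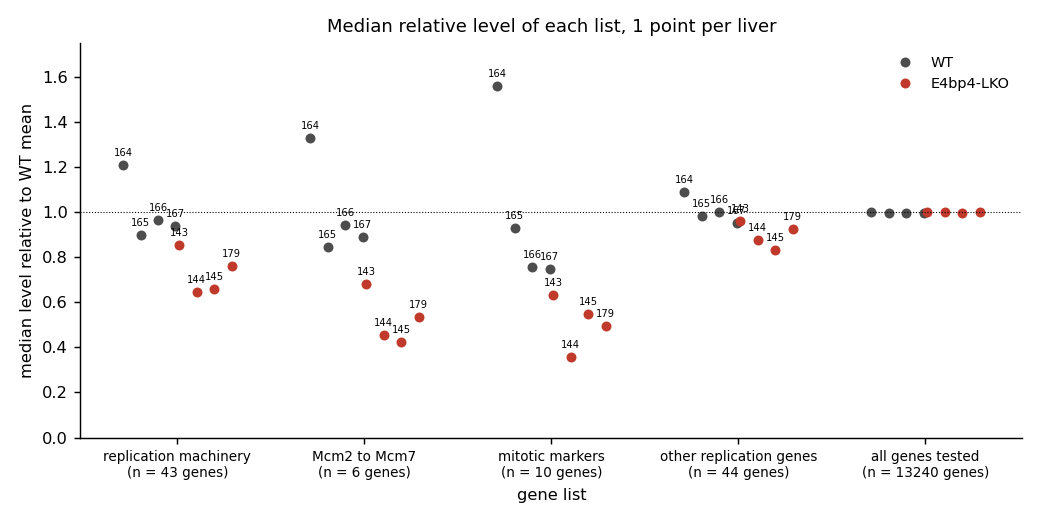
Median level relative to the WT mean (vertical axis, from 0) of the tested genes of 5 lists, 1 point per liver with its mouse number. WT 164 stands highest for the replication genes at 1.21, Mcm2 to Mcm7 at 1.33 and the mitotic markers at 1.56, and the E4bp4-LKO livers of these lists lie under the WT livers.

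Levels per length (FPKM, which scales fragments for transcript length and library size) allow the subunits of 1 complex to be set side by side. The ring genes lay within 1.95-fold of each other in WT means, from 5.08 FPKM for Mcm4 to 9.91 for Mcm7, and within 2.58-fold in E4bp4-LKO means, from 2.21 for Mcm5 to 5.69 for Mcm7. The GINS subunits were spread far more widely, with Gins4 at 13.2 FPKM and Gins3 at 0.595 in WT, a ratio of 22.1, and 26.0 in E4bp4-LKO livers. In polymerase delta the ratio of Pold2 to Pold1 went from 2.80 in WT to 5.81 in E4bp4-LKO means, as Pold1 was at 2.40 and 1.25 FPKM and Pold2 at 6.74 and 7.23. The RFC genes kept a ratio of highest to lowest of 7.05 in WT and 7.13 in E4bp4-LKO means, with Rfc2 highest and Rfc4 lowest in both. In ribonucleotide reductase the means of Rrm2 and Rrm1 were within 1.11-fold in WT and 1.05-fold in E4bp4-LKO livers. Single livers differed more: Rrm2 was at 11.6 and Rrm1 at 7.55 FPKM in WT 164, a ratio of 1.53, whereas in WT 166 Rrm2 was the lower of them, at 4.16 against 4.94 FPKM. The CAF-1 genes were within 1.23-fold and 1.11-fold in the same order. Subunit ratios are descriptions of group means and were not tested.

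**Figure D5:**
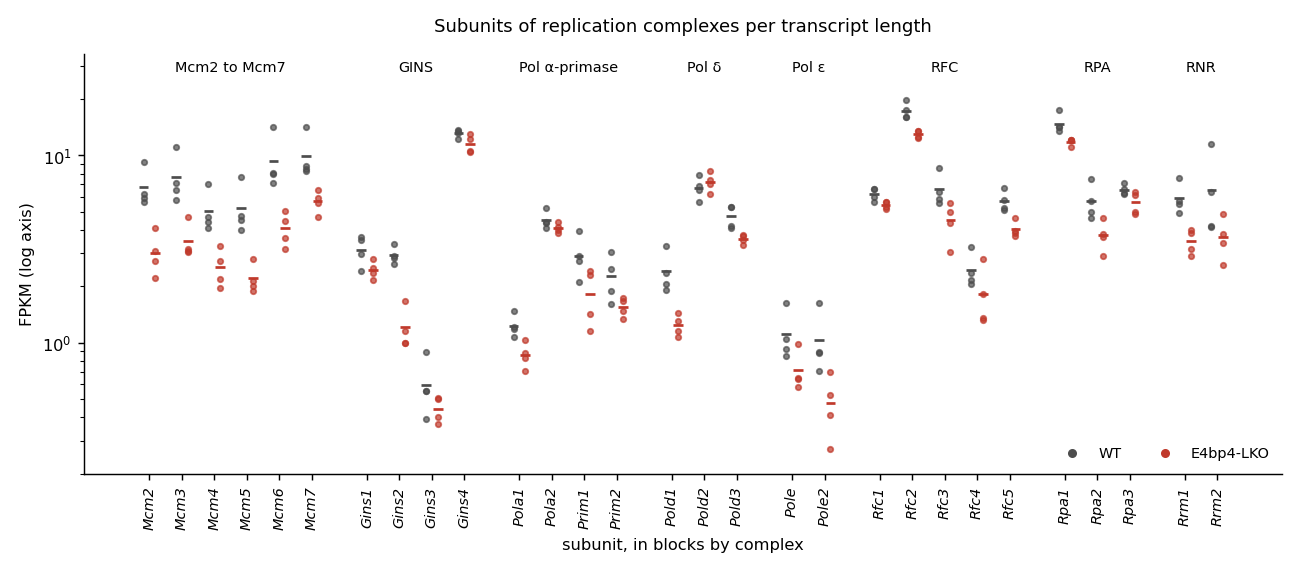
FPKM of the subunits of 8 replication complexes (vertical log axis), 1 point per liver and a bar at the group mean, WT in grey and E4bp4-LKO in red (n = 4 per group). The ring genes lie within a narrow band that is lower in E4bp4-LKO livers, whereas the GINS genes run from 0.595 to 13.2 FPKM in WT means.

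Another list of 46 replication genes, with roles in origin firing, fork protection, RNA primer removal and the nucleotide pool, was measured beside the members. Of 44 tested, 4 fell and 0 rose, where 6.49% of all genes fell, and the median log2 fold change was -0.12 (-0.28 with library totals). The difference between the lists was not tested. Timeless, a fork protection factor, fell by 0.67 on the log2 scale (SE 0.13, edgeR adjusted p = 0.0130) and passed with any 1 liver left out. Top2a, the topoisomerase of dividing cells, fell by 1.25 (SE 0.29, adjusted p = 0.0249). Mms22l, which acts at stalled forks, fell by 0.88 (SE 0.20, adjusted p = 0.0226), and Topbp1, which takes part in origin firing, by 0.40 (SE 0.11, adjusted p = 0.0444). Without WT 165 or E4bp4-LKO 144, 145 or 179 only Timeless remained of these 4, and without WT 164 and 165 together 0 passed.

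Of 28 tested regulators of entry into S phase, 6 fell and 2 rose, with a median log2 fold change of -0.080. Over all genes tested 6.49% fell and 4.38% rose. With library totals 8 fell and 0 rose, and the median was -0.24, beside -0.15 over all genes. In limma on log2(FPKM + 1) and log2(FPKM + 0.1) 6 and 7 fell and 0 rose. The TMM median was -0.010 without WT 164 and 0.016 without WT 164 and 165. Cdkn1a, which encodes the kinase inhibitor p21, fell by 2.07 on the log2 scale (SE 0.23, edgeR adjusted p = 0.0018). Ccnd1, cyclin D1, fell by 0.81 (SE 0.18, adjusted p = 0.0235). Both passed with any 1 liver left out. E2f1 fell by 0.51 (SE 0.11, adjusted p = 0.0204), a call lost without E4bp4-LKO 144 or 145 (up to 0.0652). The other E2F genes did not pass, with log2 fold changes of -0.17 for E2f2, -0.019 for E2f3, 0.025 for E2f4, 0.089 for E2f5, 0.12 for E2f6, -0.78 for E2f7 and 0.11 for E2f8. Ccna2 also fell, a call lost without WT 164 and without WT 165. Cdkn2c fell by 0.70 (adjusted p = 0.0321) and Rbl1, the pocket protein p107, by 0.79 (adjusted p = 0.0336). Leaving out WT 164 or 165, or E4bp4-LKO 144 or 179, ended both calls, with adjusted p as high as 0.0976. That of Cdkn2c also ended without 143 and that of Rbl1 without 145. Rbl2, the related p130, rose by 0.36 (SE 0.091, adjusted p = 0.0335), a call that ended with library totals (0.0820). It also needed WT 164, 165 and 166 and E4bp4-LKO 144, 145 and 179, with adjusted p as high as 0.0953 when 1 of these was left out. Tfdp2, a partner of E2F proteins, rose by 0.35 (SE 0.096, adjusted p = 0.0431), a call that ended with library totals (0.308) and without any single liver other than WT 164 (as high as 0.109).

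Of 10 mitotic markers, 3 fell (Cdk1, Ccnb1 and Aurkb), 0 rose and 7 did not pass, where 6.49% of all genes fell. Their median log2 fold change was -0.98. DESeq2 called 7 of them. Without E4bp4-LKO 144 the edgeR count was 0, without 179 or WT 165 it was 1 and without WT 164 it was 2. Without WT 164 and 165 together it was 0 and the median was -0.61. Cdk1, the mitotic kinase, fell by 0.99 on the log2 scale (SE 0.22, edgeR adjusted p = 0.0202). Mki67, the proliferation antigen, was at 19.6, 12.4, 8.74 and 7.98 CPM in WT livers and 8.52, 4.12, 5.63 and 6.61 CPM in E4bp4-LKO livers. Its groups overlapped, with WT 164 the highest, and its log2 fold change of -0.98 did not pass (SE 0.31, adjusted p = 0.0757). Summed over the mitotic markers, the WT livers held 29.1 to 59.5 CPM, and the most in any E4bp4-LKO liver was 24.9 CPM. Their part in the replication genes' difference was not tested.

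Some markers of other liver cell types were lower alongside the replication genes, and their part in that difference was not tested. The counts below stand beside 6.49% of all genes lower and 4.38% higher. Of 6 stellate cell markers 3 fell (Lrat, Dcn and Col3a1), with summed levels of 651 to 1222 CPM (WT) and 389 to 543 CPM (E4bp4-LKO). DESeq2 called 5 of them. In edgeR only Dcn passed without WT 165 or E4bp4-LKO 144, and 0 passed without WT 164 and 165 together. Of 6 macrophage markers 2 fell (Cd68 and Cd5l), with sums of 556 to 685 and 407 to 609 CPM. Only Cd5l passed without WT 165 or E4bp4-LKO 144, and 0 passed without WT 164 and 165 together. The 4 cholangiocyte markers summed to 12.4 to 32.9 and 8.08 to 12.7 CPM, and 0 passed in edgeR, with 4 at an unadjusted p under 0.05 and 2 called by DESeq2. Of 4 monocyte and neutrophil markers 1 fell (Ccr2), with sums of 10.6 to 23.3 and 8.60 to 14.2 CPM. The Ccr2 call was lost without WT 164, WT 165 or E4bp4-LKO 143 or 144. Endothelial sums (0 of 5 passing, with 1 at an unadjusted p under 0.05 and 1 called by DESeq2) were 155 to 186 and 161 to 233 CPM. T and NK cell sums (0 of 5, with 1 and 0) were 3.99 to 5.98 and 4.63 to 6.83 CPM. B and plasma cell markers had 1 of 6 higher (Jchain), with sums of 4.76 to 8.18 and 7.06 to 17.4 CPM. The Jchain call was lost without WT 165, WT 166 or E4bp4-LKO 144. Erythroid markers had 1 of 4 higher (Alas2), with sums of 740 to 2914 and 407 to 2782 CPM. The Alas2 call ended with library totals, in limma on FPKM and without WT 165, WT 166 or E4bp4-LKO 143. WT 164 and E4bp4-LKO 143 held the highest erythroid, monocyte and neutrophil, and B and plasma cell sums of their groups. They also headed their groups for the replication genes. In the other cell types the pair of livers with the highest sums was different. By the median level relative to the WT mean, WT 164 (1.10) and E4bp4-LKO 143 (1.08) also headed their groups for the macrophage markers. No marker of these lists was at 0 throughout.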

How the data were processed

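Whole-liver RNA-seq of 4 WT and 4 E4bp4-LKO mice was compared, with each library's group taken from its labels. Per the labels' protocols, mRNA was enriched by oligo-dT or by removing ribosomal RNA and was randomly primed. HISAT2 is named in the submitters' processing notes. The sources used here give no counting program, genome build, annotation release or strand. The authors deposited an expected count per gene, which is not normalized and is fractional for 25.9 to 27.3% of entries, and an FPKM value, which the authors scaled for length and library size. The 44 members and the other lists were chosen with earlier results of these data known. Every member is named. Values in each liver are given for members that passed and for the 2 lowest p of each role. Of the other lists every passing gene is named, with Mki67, Cdkn1a and E2f1 to E2f8 in any case.

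Expected counts were rounded and tested in R 4.3.3 with edgeR 4.0.16 (filterByExpr with minimum count 10 and minimum total 15, TMM, robust quasi-likelihood fit, two-sided). Adjusted p-values are Benjamini-Hochberg over all 13240 genes tested, with a threshold of 0.05, and log2 fold changes are E4bp4-LKO over WT. Entries that name no gene, 0.0367 to 0.0451% of counts, were left out. A count of 3 was taken as the floor, which covers counting error alone, as PCR copies were not told apart by molecular identifiers. Alternatives were DESeq2 1.42.0, other scalings and filters, limma 3.58.1 on log2(FPKM + 1) or log2(FPKM + 0.1), voom weights, a threshold of 0.1 and leaving livers out. Exon overlaps and shared runs of 50 bases were read from GENCODE M21, and promoters from RefSeq on GRCm38.p6, which may not be the authors' build. Besides the overlaps given above, smaller ones on the opposite strand included Orc2 with Nif3l1 (29.8% of exonic bases) and Rfc2 with Lat2 (15.1%). Rfc4 overlapped Eif4a2 (12.7%) and Tk1 overlapped Afmid (1.6%) in the same way.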

Additional observations from a re-analysis of the deposited data

Results flagged for a closer look

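Of 88 groups of 4 livers examined (44 members in each group), 6 held a liver set apart from the other 3 by most of the group's range. Chance alone sets apart about 1 in 20 groups. Of the 6, 3 were WT 164 and 3 were E4bp4-LKO 143, and in all 6 that liver was the highest of its group. WT 164 was at 15.1 CPM for Cdt1, with the next WT liver at 8.85. It was at 36.0 CPM for Mcm6, where the next was at 23.5, and at 11.3 CPM for Chaf1a, where the next was at 7.27. E4bp4-LKO 143 was at 14.3 CPM for Mcm3, with the next E4bp4-LKO liver at 9.78. It was at 7.26 CPM for Lig1, where the next was at 6.16, and at 2.41 CPM for Cdc6, where the next was at 0.956. Without E4bp4-LKO 143, Cdc6 and Chaf1a passed the edgeR test as lower.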

How the results depend on the processing

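No paired analysis was possible because the groups share no mouse numbers. Fold changes were relative to TMM scaling: with library totals the median of all genes went from 0.0094 to -0.15 on the log2 scale and the share of calls that were lower from 59.7% to 85.1%, with 84.4% and 85.2% in limma on FPKM. The lower members then numbered 22, 19 and 21, beside 1662, 1440 and 1609 lower calls over all genes, and the higher members stayed at 2. Over all genes 1439 were called by edgeR, 2233 by DESeq2, 2488 at an adjusted p under 0.1 and 387 without WT 164 and WT 165. That last fit, with 2 WT livers, left 5 members lower and 0 higher. Leaving out 1 liver in turn gave 506 to 1540 genes called, 7 to 19 members lower, 1 to 2 higher, a median of -0.58 to -0.30 and Nfil3 at -1.50 to -1.17. The lowest counts came without E4bp4-LKO 144. The other alternatives moved none of these counts by over 1.5 times.

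Signs turned for 3 members, none of which passed. Orc2 was at -0.12 with library totals and at -0.083 and -0.12 in limma on log2(FPKM + 1) and log2(FPKM + 0.1), and ran from -0.017 to 0.12 as 1 liver in turn was left out. Pola2 was at -0.15, -0.11 and -0.14 in the same 3 fits, and from -0.023 to 0.045 with 1 liver left out. Gins4 ran from -0.099 to 0.014 with 1 liver left out. The cause was not tested. The number of livers and low counts, as for Orc1, limit what could be detected.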
